A study of Mus musculus with 18 samples.

Results

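The untreated wild-type microglia of this mouse series were studied here by themselves, as a description of the transcriptome of embryonic hippocampal microglia without treatment. They comprise 6 arrays of 18 in all and were taken by their label, UT. Every array holds RNA of E17.5 embryos that were wild type (DAP12+/+), on a C57BL/6 background and untreated. Their gender is recorded as unknown. Hippocampi were pooled and digested with trypsin and DNase I, and CX3CR1-GFP+ cells were sorted by FACS. Per the design text, microglia were pooled per pregnant dam, so an array stands for a pool of embryos and not for a single animal. By the year in their titles, 4 arrays are UT_2013 (UT-1_2013, UT-2_2013, UT-3_2013 and UT-6_2013) and 2 are UT_2012 (UT3_2012 and UT4_2012). The labels do not say what the year marks. The remaining arrays, from LPS-exposed, PBS-exposed and DAP12-mutant embryos, entered only the choice of 1 probe set per gene, the set with the highest mean over all 18 arrays.

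Microglia are the resident macrophages of the brain parenchyma. They descend from yolk sac progenitors that enter the brain early in embryonic life, they depend on signalling through the receptor Csf1r, and they are maintained by transcription factors such as Spi1, Irf8 and Sall1. In the embryonic brain they divide, clear dying cells through lysosomes and complement, and sense their surroundings through purine, chemokine and Fc receptors.

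Values are log2 signals of Affymetrix probe sets, on a scale whose shared lowest value was 2.19. A gene was counted as at the floor where its 6 values all lay within 0.01 of that value, and as above the floor band where its 6 values all reached 2.38, the 40th percentile of probe set means. Signals of different genes come from different probes, so their order is an order of signals and not of mRNA amounts. Pearson r between pairs of arrays, over all probe sets, ran from 0.924 to 0.974, and the lowest value for every other array was with UT-2_2013 (0.924 to 0.946). The signal of the Gapdh control at the 3′ end exceeded that at the 5′ end by 0.99 to 1.31 (log2) on 4 arrays, by 2.23 on UT-2_2013 and by 2.77 on UT4_2012. The same difference for the Actb control lay between −0.21 and 0.11 on the 6 arrays.

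Of 18194 genes, 10085 (55.4%) were above the floor band on all 6 arrays, 5105 (28.1%) were at the floor on all 6, and 3004 lay between. The median gene mean was 4.17, and 813 genes had a mean of 12 or more and 116 a mean of 14 or more. The microglia markers lay in the upper tail of this distribution.

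**Figure D1:**
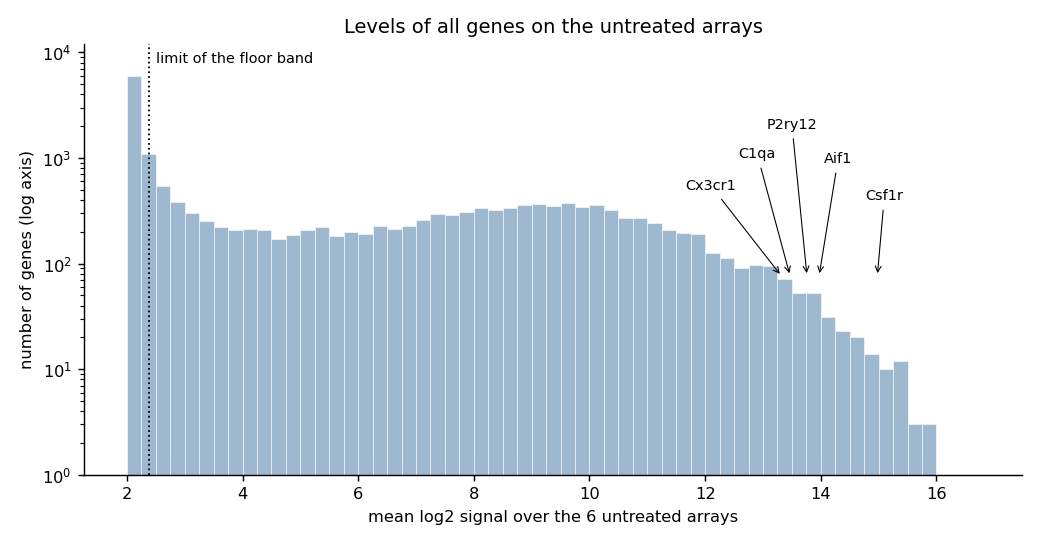
The number of genes (log axis) at each mean log2 signal over the 6 untreated arrays, with the means of 5 microglia marker genes marked by arrows and the limit of the floor band (2.38) by the dotted line. The markers lie between 13.33 (Cx3cr1) and 14.98 (Csf1r), while the tallest bar holds the genes at the floor.

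The 25 brightest genes fell into a few kinds. Rps29, Rpl35, Rplp2, Rps28, Rps20, Rps24, Rpl38, Rpl37a, Rpl13a and Rps18 encode ribosomal proteins, with means of 15.90 for Rps29 down to 15.02 for Rps18. C1qb, a chain of the complement starter C1q, was the brightest gene that is neither ribosomal nor general machinery, with 15.40 on the lowest array, a median of 15.77 and 16.21 on the highest. Laptm5, a lysosomal membrane protein of blood-lineage cells, had a mean of 15.57 ± 0.14 (SD, n = 6). Grn (progranulin, a secreted and lysosomal trophic protein) followed at 15.34 ± 0.14. The lysosomal cysteine proteases Ctsz and Ctss had means of 15.33 ± 0.11 and 15.04 ± 0.04, and Atp6ap2, an accessory subunit of the proton pump, 15.05 ± 0.16. Actb (actin), Tmsb4x (thymosin beta-4, which binds actin monomers) and Cfl1 (cofilin, which severs filaments) belong to the cytoskeleton, with means of 15.40, 15.48 and 15.015. The others were the nuclear RNA Malat1 (15.52), the RNA-binding protein Hnrnpab (15.46), the chaperone Hspa8 (15.27), the nucleosome-binding Hmgn1 (15.27), the adaptor Ywhae (15.15) and the glycolytic enzyme Gapdh (15.08). The gene next in order, Rpl41, had a mean of 15.013, so that the limit of this group separates nearly equal signals. With the mean over the probe sets of a gene in place of 1 probe set, 8 of the 25 remained among the brightest.

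The 5 markers used to check the label were all far above the floor on all arrays. Csf1r, the receptor for the survival factors Csf1 and Il34, had 14.86 on the lowest array, a median of 14.97 and 15.13 on the highest. Aif1 (Iba1, an actin-bundling protein of microglia) ranged from 13.55 over a median of 14.03 to 14.28. P2ry12, the ADP receptor that steers microglial processes, ranged from 13.48 over a median of 13.78 to 14.001. Cx3cr1, the fractalkine receptor whose reporter served for the sort, ranged from 13.13 over a median of 13.36 to 13.53 and for that reason is no independent check. These 4 genes differed by less than 1 log2 unit between the lowest and the highest pool. C1qa, another C1q chain, lay at 13.53 to 13.94 on 5 arrays and at 12.01 on UT4_2012. On that array the partner chains C1qb and C1qc were at 15.40 and 14.61, against 15.65 to 16.21 and 14.62 to 14.82 on the other 5. UT4_2012 also had the largest Gapdh 3′ to 5′ difference given above, whose part in the C1qa value was not tested.

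A wider list of 23 measured microglia identity genes was above the floor band throughout, and its mean moved only between 13.19 and 13.44 across arrays. Its members included Fcrls (an Fc receptor-like scavenger protein; mean 14.69 ± 0.12, SD, n = 6), Siglech, a sialic acid-binding lectin (13.86 ± 0.19), Olfml3, a secreted matrix protein (13.88 ± 0.17), and Trem2, a lipid-sensing receptor (12.95 ± 0.40). Tmem119, a membrane protein known to mature with age in microglia, had a mean of 11.93 ± 0.43 and ran from 11.16 over a median of 12.05 to 12.31. The transcription factors Irf8 (11.45 ± 0.53) and Spi1 (11.15 ± 0.58) and the integrin chain Itgam, known as CD11b (10.87 ± 0.42), were lower, and each still lay far above the floor.

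The promoters of these microglia genes were set beside those of other genes, to ask what they share in sequence. RefSeq promoter windows (GRCm38.p6, 250 bases before to 50 after the start, first entry of a gene) were found for 14368 genes and for 20 of the 28 genes of both microglia lists. An observed-to-expected CpG ratio of 0.6 or more, the usual limit of CpG-rich promoters, was met by 23.2% of genes at the floor, 80.5% of genes above the band with a mean from 8 to 12, and 68.8% of genes with a mean of 14 or more. Of the 20 microglia promoters, 2 met it (Irf8 and Sall1). Their median ratio was 0.31, against 0.31 for genes at the floor, 0.82 for genes with a mean from 12 to 14 and 0.67 for all genes. So the bright microglia genes had promoters as poor in CpG as those of genes at the floor, whereas most genes in their range of signal had CpG-rich ones. The motif GAGGAAG, which holds the GGAA core of sites for the ETS factor Spi1, was found on either strand in 8 of the 20 promoters and in 13.2% of all promoters. TATAAA was in 5 of the 20 and 9.85% of all, and GGGCGG in 7 of the 20 and 54.1% of all. GAGGAAG and GGGCGG can share an end base, and a match is a description, not a site. Several promoters are printed below 5′ to 3′ on the strand of the gene with each CG in capitals, so that the difference can be seen. P2ry12 (chr3:59262936-59263235, minus strand), C1qc (chr4:136892865-136893164, minus strand) and Ctss (chr3:95526536-95526835, plus strand) stand for the CpG-poor microglia genes, with 4, 3 and 5 CG pairs. Irf8 (chr8:120736108-120736407, plus strand), with 38, is the CpG-rich exception among them, and the ribosomal Rplp2 (chr7:141447401-141447700, plus strand), with 34, stands for the broadly used bright genes.
P2ry12: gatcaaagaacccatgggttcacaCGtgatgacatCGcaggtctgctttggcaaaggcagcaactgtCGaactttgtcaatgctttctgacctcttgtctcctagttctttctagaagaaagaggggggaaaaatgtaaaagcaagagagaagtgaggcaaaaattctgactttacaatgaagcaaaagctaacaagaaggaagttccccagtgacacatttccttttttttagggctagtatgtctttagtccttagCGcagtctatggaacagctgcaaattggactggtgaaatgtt
C1qc: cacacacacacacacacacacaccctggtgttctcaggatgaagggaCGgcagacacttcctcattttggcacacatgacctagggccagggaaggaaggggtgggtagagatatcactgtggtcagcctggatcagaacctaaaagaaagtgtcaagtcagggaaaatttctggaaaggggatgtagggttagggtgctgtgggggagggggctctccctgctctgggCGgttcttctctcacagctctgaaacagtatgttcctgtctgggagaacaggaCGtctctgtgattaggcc
Ctss: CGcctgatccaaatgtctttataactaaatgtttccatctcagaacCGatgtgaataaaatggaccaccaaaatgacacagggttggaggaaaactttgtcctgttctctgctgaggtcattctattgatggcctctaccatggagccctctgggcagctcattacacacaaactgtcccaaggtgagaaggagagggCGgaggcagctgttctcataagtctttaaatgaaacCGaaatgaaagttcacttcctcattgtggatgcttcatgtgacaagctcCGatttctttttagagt
Irf8: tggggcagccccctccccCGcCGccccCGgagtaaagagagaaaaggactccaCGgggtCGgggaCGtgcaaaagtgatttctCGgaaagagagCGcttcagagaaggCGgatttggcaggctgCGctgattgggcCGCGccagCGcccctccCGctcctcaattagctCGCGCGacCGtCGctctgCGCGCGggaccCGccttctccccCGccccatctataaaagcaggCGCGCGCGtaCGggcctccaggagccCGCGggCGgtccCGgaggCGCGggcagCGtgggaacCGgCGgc
Rplp2: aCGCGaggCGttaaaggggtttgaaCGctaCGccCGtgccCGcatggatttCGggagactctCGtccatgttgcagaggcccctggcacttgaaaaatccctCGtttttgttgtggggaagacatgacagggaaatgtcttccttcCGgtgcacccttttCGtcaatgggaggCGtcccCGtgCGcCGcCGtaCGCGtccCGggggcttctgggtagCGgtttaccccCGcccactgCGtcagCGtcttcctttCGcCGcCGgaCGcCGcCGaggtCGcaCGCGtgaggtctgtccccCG
C1qc and Ctss each hold GAGGAAG on the opposite strand, where it reads cttcctc in the lines above, and P2ry12, Irf8 and Rplp2 hold none.

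Receptors were read from a list of 201 measured genes, of which 139 were above the floor band on all arrays and 32 were at the floor, against 28.1% of all genes. Values in brackets are, in order, those of the lowest array, the median and the highest array. Among G protein-coupled receptors the highest signals were those of P2ry6, the UDP receptor linked to phagocytosis (13.38, median 13.86, 14.14), P2ry12, C5ar1, the receptor for the complement fragment C5a (12.51, median 13.60, 13.97), and P2ry13, another ADP receptor (mean 13.08 ± 0.27, SD, n = 6). At the floor on all arrays were 8 of 40, among them P2ry1, P2ry14, P2ry10, Gpr132, Fpr2 and Ltb4r1, so that purine receptors were found at both ends of the scale.

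Of 8 ligand-gated channels, the ATP-gated P2rx7 and P2rx4 led. P2rx7 had 9.76 on UT-2_2013 and 10.65 to 11.14 on the other arrays. P2rx4 had 7.10 on UT-2_2013 and 9.99 to 10.86 on the others, so both channels were lowest on the same array. Gria2, a glutamate receptor subunit best known from neurons, followed with 7.14 to 10.67, and P2rx1 had a mean of 6.97 ± 0.76. P2rx3 was at the floor.

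Chemokine receptors had a low median signal. Cx3cr1 and Ackr4, an atypical receptor that takes up chemokines, had means of 13.33 ± 0.15 and 13.15 ± 0.24 (SD, n = 6). Cxcr4, the receptor of Cxcl12, ran from 9.30 to 11.88, and Cmklr1, the chemerin receptor, had a mean of 9.31 ± 0.38. The median of the 21 genes was 2.71, against 4.17 for all genes. At the floor were 6 (Ccr3, Ccr4, Ccr7, Ccr8, Cxcr5 and Ackr2), about the share of all genes (28.1%). Ccr2, the receptor of inflammatory monocytes, had a mean of 2.28 ± 0.18, within the floor band.

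Among 58 cytokine and growth factor receptors, 41 were above the band. Csf1r was followed by Il6ra, the ligand-binding chain for Il6 (12.85, median 13.05, 13.20), Tgfbr1, a signalling receptor of TGF-beta (12.74, median 12.94, 13.27), and Tnfrsf1b, a TNF receptor (12.44, median 12.64, 13.01). The lowest and highest pool differed by less than 1 log2 unit for each. At the floor were 8, among them Flt3, Il1r2, Il2ra, Il18r1, Tgfbr3 and Fas.

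Of 31 pattern recognition and scavenger receptors, 23 were above the band. Stab1 and Mrc1, endocytic scavenger receptors, had means of 13.65 ± 0.27 and 12.94 ± 0.35, Cd180, a Toll-like relative, 12.86 ± 0.13, and Lrp1, a large lipoprotein receptor, 12.57 ± 0.42 (SD, n = 6). Of the receptor complex for LPS, Tlr4 ran from 10.36 to 12.42, its co-receptor Cd14 from 7.58 to 10.24 and the adaptor Ly96 from 5.92 to 8.79. Tlr8, Clec4d, Clec4e, Stab2 and Olr1 were at the floor.

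Immunoglobulin-like and Fc receptors were led by Fcrls (14.51, median 14.71, 14.84), Sirpa, the inhibitory receptor for Cd47 (14.28, median 14.48, 14.66), Fcgr3, an activating Fc gamma receptor (13.70, median 14.03, 14.20), and Siglech (13.59, median 13.83, 14.13). Of 25 genes, 4 were at the floor (Trem1, Fcer1a, Timd4 and Ctla4). None of the 18 integrins and adhesion receptors was at the floor. Itgb5, Itga6, Selplg and Itgb2 led that group with means of 12.82, 12.58, 12.11 and 11.98, and the group's median was 10.31.

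**Figure D2:**
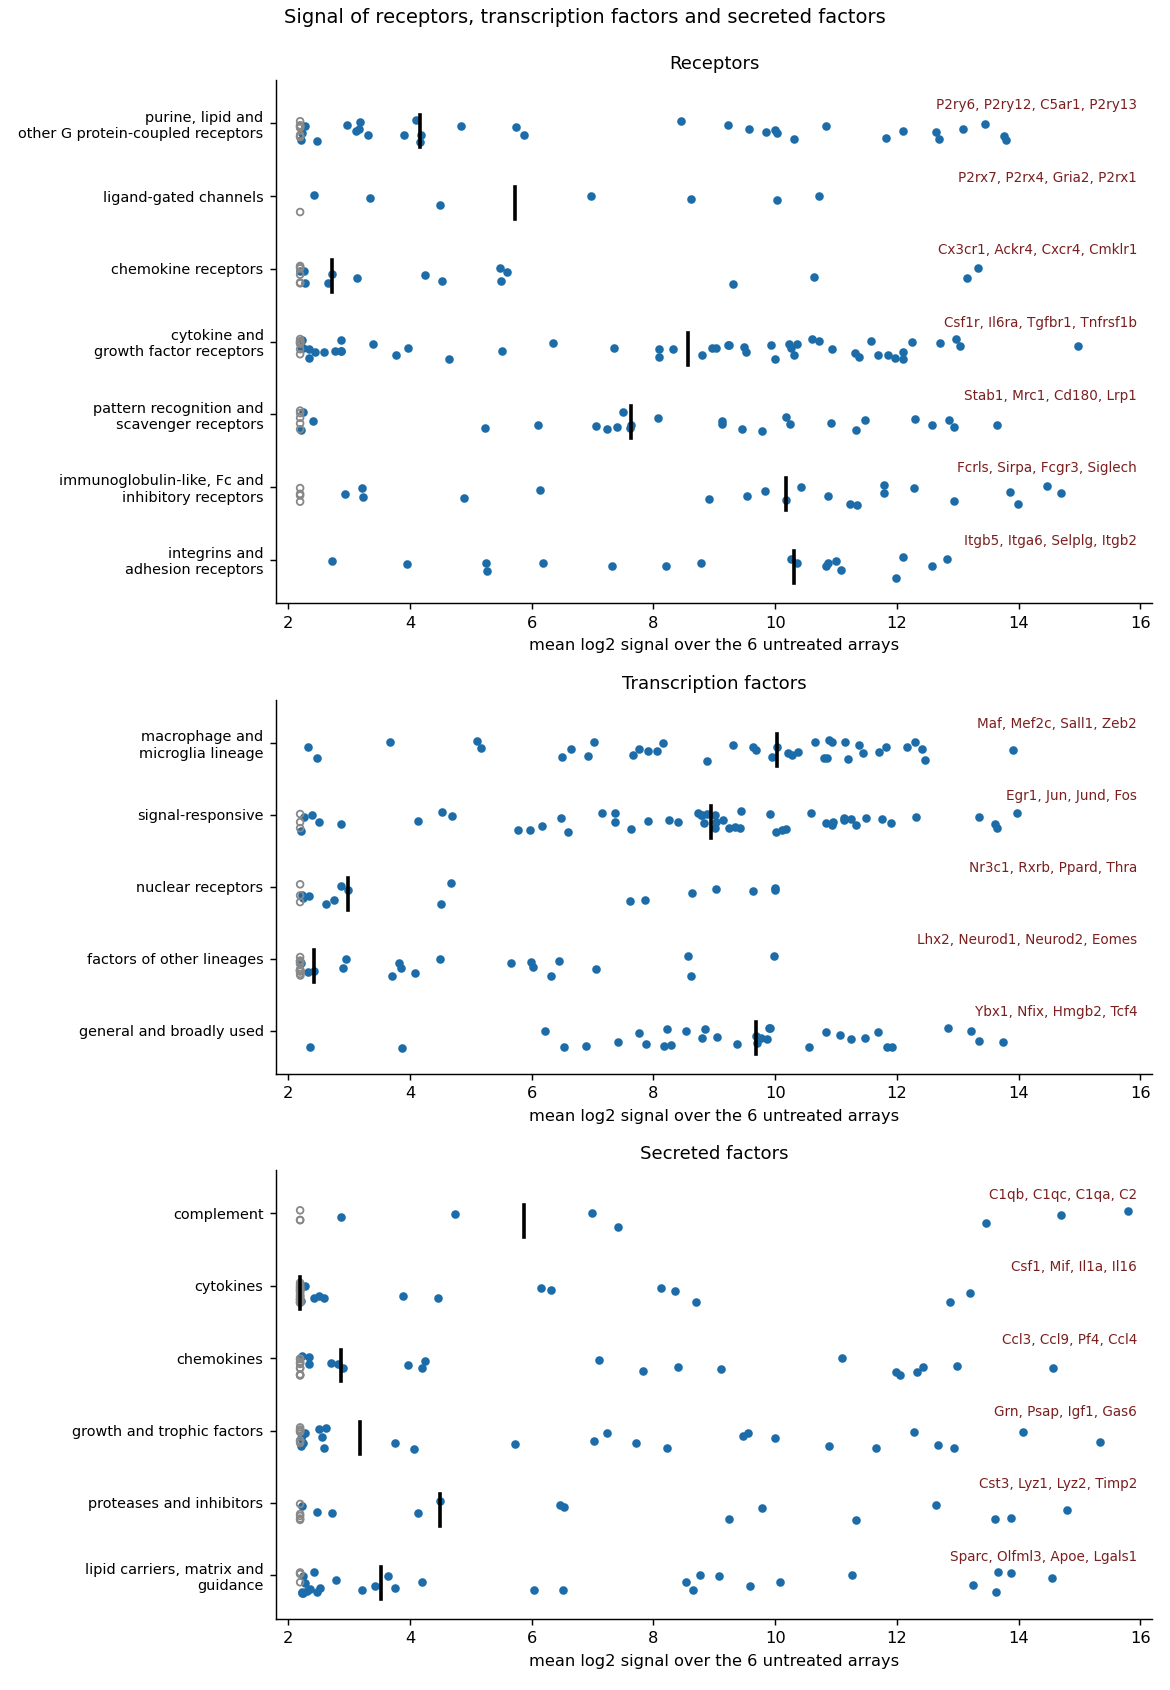
Mean log2 signal over the 6 untreated arrays of every measured receptor, transcription factor and secreted factor, by role. Filled points are genes not at the floor on all arrays, open points are genes at the floor, black bars are medians, and the 4 genes of highest mean are named for each role. Cytokines have a median at the floor, while integrins have a median of 10.31.

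Of 181 measured transcription factors, 139 were above the band and 20 at the floor. None of the 39 macrophage and microglia lineage factors was at the floor. Maf, which with its relatives drives macrophage maturation, had 13.29 on UT4_2012 and 13.89 to 14.24 on the other arrays. Mef2c, a MADS-box factor of microglia, ran from 11.79 over a median of 12.46 to 12.92. Sall1, which holds microglial identity, ran from 12.05 over a median of 12.41 to 12.83, and Zeb2, a zinc finger repressor, from 12.19 over a median of 12.28 to 12.46. Spi1, the master factor of myeloid cells, was lowest on UT4_2012 as Maf was (10.16 against 11.03 to 11.93).

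The signal-responsive factors Egr1, Jun, Jund and Fos are products of immediate early or stress-regulated genes. Egr1 lay within the range of Maf, while Jun and Fos also had values below it. Egr1 ran from 13.84 over a median of 13.95 to 14.17, Jun from 13.27 over a median of 13.68 to 13.96 and Jund from 13.31 over a median of 13.61 to 13.92. Fos had 12.59 to 13.45 on the UT_2013 arrays, and 13.88 and 13.89 on those of UT_2012. Only Stat4, Fosl1 and Hes1 of 56 were at the floor. Dissociation and sorting take place before RNA extraction, and the part of this handling in the immediate early signals was not tested.

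Nuclear receptors had a median of 2.98. Nr3c1, the glucocorticoid receptor, led with 9.14 to 11.23, followed by Rxrb (mean 9.99 ± 0.47, SD, n = 6), Ppard (9.63 ± 1.22) and Thra (9.03 ± 0.77). Rarb, Ppara and Nr3c2 were at the floor. Among 33 factors of other lineages, 14 were at the floor, among them Olig2, Gata1, Gata3, Pax5, Tbx21 and Sox10. The highest were neural: Lhx2, a cortical progenitor factor (9.05 to 10.87), Neurod1 (7.33 to 9.60), Neurod2 (mean 8.57 ± 0.999) and Eomes (7.05 ± 0.85). The broadly used factors Ybx1, Nfix, Hmgb2 and Tcf4 had means of 13.74, 13.35, 13.21 and 12.85.

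Secreted factors were the class of the 3 with the largest share at the floor. Of 162 measured genes, 51 (31.5%) were at the floor, close to the share of all genes (28.1%). Above the band were 76 (46.9%), against 55.4% of all genes. Within complement, the C1q chains C1qb, C1qc and C1qa were bright (means of 15.80, 14.70 and 13.47), C2 followed at 7.42 ± 0.87, and C1ra, C1s1 and C6 were at the floor. C1ra and C1s1 encode proteases that complete the C1 complex.

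Of 35 cytokines, 21 were at the floor on all arrays, among them Il2, Il3, Il4, Il5, Il6 and Il7. Csf1, a ligand of Csf1r, was the brightest with 13.07 on the lowest array, a median of 13.20 and 13.31 on the highest, and Mif, a broadly made cytokine, ran from 11.91 over a median of 12.91 to 13.57. Il34, the other Csf1r ligand, was at the floor. Il1a had a mean of 8.69 ± 0.55 and Il16 of 8.36 ± 0.99. For Il1a the values on UT-3_2013, UT-6_2013 and UT3_2012 were equal (8.58). Il1b, the inflammasome product, was uneven, with 5.35, 2.88, 8.97 and 4.66 on the UT_2013 arrays in the order above and 8.78 and 7.30 on those of UT_2012. High and low values of Il1b were mixed within the UT_2013 arrays.

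Among chemokines, Ccl3 alone had a mean within the range of the 5 marker genes. Ccl3, an inflammatory chemokine, ran from 14.45 over a median of 14.55 to 14.76, and Ccl9 from 12.91 over a median of 12.98 to 13.12, so both were nearly constant. Ccl4 ran from 11.61 over a median of 12.47 to 12.92. Ccl3 and Ccl4 also stand on the immediate early list, and the part of dissociation and sorting in their signals was not tested. Pf4, a platelet chemokine also made by border-associated macrophages, ran from 10.65 to 13.77. Of 30 chemokines, 10 were at the floor, among them Ccl1, Ccl8, Ccl11, Ccl17, Ccl20, Ccl22 and Cx3cl1, the ligand of Cx3cr1.

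Growth and trophic factors were led by Grn, Psap, the precursor of lysosomal saposins (13.76, median 13.94, 14.71), Igf1, a neuronal survival factor (12.13, median 12.95, 13.42), and Gas6, a bridge between dying cells and phagocyte receptors (11.83, median 12.77, 13.44). Bdnf and Gdnf were at the floor, with Pdgfc, Fgf1, Fgf2, Bmp7 and others, 8 of 34 in all. Cst3, a protease inhibitor, and the lysozymes Lyz1 and Lyz2 had means of 14.80, 13.88 and 13.61, although the lysozyme genes are near-identical and their probe sets may not tell them apart. Timp2, an inhibitor of metalloproteases, followed at 12.64 ± 0.21, and Mmp8, Mmp12, Mmp13, Serpinb2 and Timp1 were at the floor.

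Among matrix and lipid carrier genes, Sparc, a matrix glycoprotein, ran from 14.47 over a median of 14.52 to 14.66, Olfml3 from 13.58 over a median of 13.88 to 14.04 and Lgals1, a galectin, from 13.26 over a median of 13.63 to 13.996. Apoe, the lipid carrier, had 13.55 to 14.49 on 5 arrays and 11.998 on UT4_2012. Apoe and C1qa thus shared a low value on the same array. Lcn2, Lum, Dcn and Alb were at the floor.

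Lysosome genes varied less between pools than cell cycle genes, with median SDs of 0.21 and 0.55. All 22 lysosome genes were above the band and their mean on an array ran from 12.86 to 13.24. All 24 genes of mitosis and S phase were above the band as well, with list means of 9.77 to 10.4. Mki67, the proliferation antigen, had a mean of 13.74 ± 0.19 and Pcna, the replication clamp, of 13.08 ± 0.31 (SD, n = 6). Other members were less even, such as Aurka (7.54 to 11.02) and Tyms (3.35 to 8.37). The 20 immediate early genes averaged 10.99 to 11.47 on the UT_2013 arrays, and 12.19 and 12.15 on those of UT_2012. Antigen presentation was divided. B2m, the light chain of class I molecules, had a mean of 14.99 ± 0.11, whereas H2-Aa and Ciita, of the class II pathway, were at the floor and H2-Ab1 had a mean of 4.71 ± 0.52. Of all lists, the type I interferon response genes had the largest spread of list means, with 7.99 on UT-6_2013 and 5.08 to 6.32 on the other arrays. Without UT-6_2013 the range of that list mean was 1.24 in place of 2.91. Ifit3, an interferon-induced antiviral gene, had 11.26 on UT-6_2013 and 8.42 to 9.38 on the others, and Cxcl10, an interferon-induced chemokine, had 4.08 on UT-2_2013 and 8.40 to 11.74 on the rest.

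Genes at the floor included most members of several families used by other tissues. In families taken by name, 35 of 38 olfactory receptors (92.1%), 33 of 37 vomeronasal and taste receptors, 71 of 86 keratins and keratin-associated genes (82.6%), 27 of 33 Hox genes (81.8%), 54 of 73 cytochrome P450 enzymes (74.0%) and 18 of 20 beta-defensins were at the floor on all arrays. Protocadherins (18 of 35), subunits of GABA and glutamate receptors (14 of 31) and potassium channels (35 of 84) lay between these and all genes (28.1%). At the other end, 0 of 58 translation factors, 1 of 42 proteasome subunits, 3 of 86 respiratory chain subunits and 4 of 49 cytosolic ribosomal proteins were at the floor. Their median gene means were 10.38, 11.01, 11.68 and 14.51. Within solute carriers, 96 of 309 were at the floor (31.1%), close to the share of all genes.

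Markers of cells other than microglia were read the same way, since a sort can carry RNA of neighbours. In bulk samples, fewer cells of a type and less RNA per cell cannot be told apart. The floor counts given here stand beside 28.1% of all genes at the floor on all arrays. Monocyte and neutrophil genes were at the floor in 7 of 12 cases (Ngp, Camp, Ltf, Elane, Mpo, Cd177 and Chil3), with list means of 2.37 to 2.99 on the arrays. Plac8 (3.59 to 7.03) and Fn1 (2.65 to 6.34) were above the band on all arrays. Of erythroid genes 4 of 7 were at the floor, Hba-a1, Hbb-y and Hba-x among them, with list means of 2.33 to 3.06. Epor was above the band on all arrays (2.90 to 7.93). Lymphocyte and mast cell genes gave 6 of 13 at the floor and list means of 2.71 to 3.27. The B cell receptor component Cd79b stood apart at a mean of 9.64 ± 0.75, while its partner Cd79a was at the floor. Endothelial and mural genes gave 3 of 13 at the floor (Flt1, Tie1 and Acta2), a share below that of all genes. Their list means were 3.34 to 4.27, with means of 2.62 for Cldn5 and 2.66 for Cdh5. Pecam1, an endothelial adhesion molecule, was above the band on all arrays (3.58 to 6.79), Rgs5, a pericyte gene, had 3.37 to 9.14 with the highest value, 9.14, on UT-2_2013, and Abcc9 had 6.93 and 6.96 on UT-6_2013 and UT3_2012 and under 2.38 elsewhere. Slc2a1, a glucose transporter with wide expression, had 12.59 ± 0.60. Of astrocyte and oligodendrocyte genes 5 of 12 were at the floor, with list means of 3.22 to 3.84, but Gja1, a gap junction protein (8.23 to 9.41), and Slc1a2, a glutamate transporter (5.63 to 11.22), were above the band on all arrays. Of meningeal and choroid plexus genes 6 of 12 were at the floor, with list means of 2.53 to 3.26, and Ttr had 4.09 to 12.19.

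Neuronal and progenitor genes had more members with signal. Of 20 neuron genes, 13 were above the band and 3 at the floor (Nefl, Nefm and Slc17a7). Tubb3, a neuronal tubulin, had 12.44, 11.61, 12.68 and 13.13 on the UT_2013 arrays in the order above, and 10.77 and 10.47 on those of UT_2012. Dcx, a microtubule protein of young neurons, had 10.57, 9.21, 10.93 and 10.20, and then 7.83 and 8.57. Both were lower on each UT_2012 array than on each UT_2013 array. Of the 13 neuron genes above the band, Map2, Gap43, Elavl3, Neurod6 and Tbr1 had this order as well. Rtn1, Snap25, Neurod2, Stmn2, Elavl4 and Rbfox3 did not, and Rtn1 had 9.84 on UT-2_2013 and 10.07 on UT3_2012. The arrays of the years did not overlap for 17.9% of all tested genes. Of 13 progenitor genes, 11 were above the band, led by Dbi, Vim and Fabp7 (means of 13.15, 13.01 and 11.77), of which Dbi and Vim are used by many cell types. List means ran from 5.65 to 7.04 for neurons and from 6.62 to 8.24 for progenitors. Their part in the signals of Lhx2, Neurod1, Neurod2, Gria2 and other neural genes named above was not tested.

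Border-associated macrophage genes, which mark the macrophages of meninges and vessels, were present with an uneven pattern. All 10 were measured, 8 were above the band and none at the floor. Stab1 and Mrc1 had SDs of 0.27 and 0.35. Lyve1, a hyaluronan receptor, had 9.84, 8.81, 11.89 and 12.16 on the UT_2013 arrays in the order above, and 11.75 and 8.45 on those of UT_2012. Cd163, the haemoglobin scavenger receptor, had 6.41, 3.82, 9.83 and 10.73, then 8.88 and 4.76. In both genes the same 3 arrays were high. Pf4 had 12.17, 11.28, 13.27 and 13.77, then 13.44 and 10.65. F13a1, a transglutaminase of such cells, had 9.26, 9.28, 10.96 and 11.16, then 10.94 and 8.02. Of the 10 genes, 6 (these 4, Mrc1 and Clec10a) were higher on UT-3_2013, UT-6_2013 and UT3_2012 than on the remaining arrays, a set of arrays noticed in these values and mixed in year. The other 4 were not: Folr2, a folate receptor, was highest on UT-2_2013 (10.14) and lowest on UT-3_2013 (8.38), Ms4a7 was higher on UT4_2012 (9.54) than on UT-3_2013 (9.11), Stab1 had 13.75 on UT4_2012 and 13.48 on UT-6_2013, and Cbr2 had 2.31 to 3.66. Since this set of arrays was picked from these values, the count of 6 is no support for it. The share of all genes with the same order of arrays was not counted. For Clec10a the order rests on values within the floor band (2.26 on UT3_2012, 2.22 on UT4_2012). The list mean was 9.61 to 9.99 on UT-3_2013, UT-6_2013 and UT3_2012 and 8.01 to 8.5005 on the others. It rests on the same values and is no support for the set either. The microglia identity list lay between 13.19 and 13.44 throughout.

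**Figure D3:**
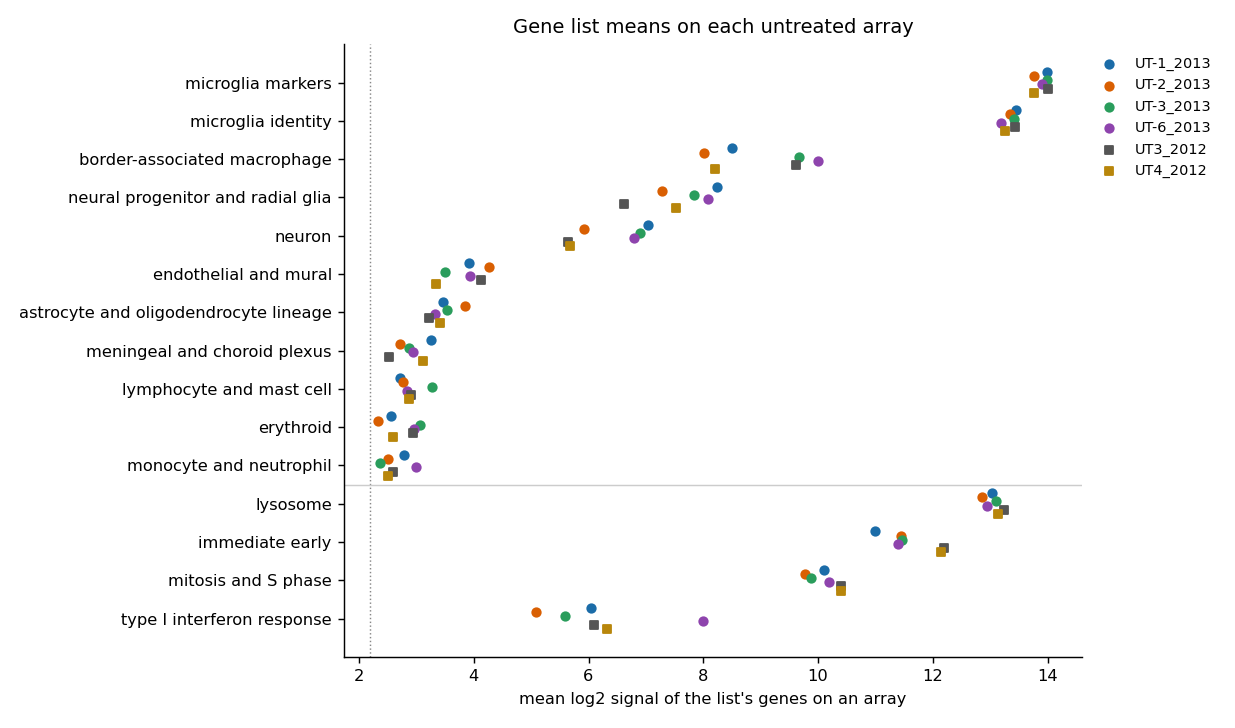
Mean log2 signal of each gene list on each untreated array, with circles for the UT_2013 arrays, squares for those of UT_2012 and a dotted line at the lowest value of the scale. Microglia lists sit between 13.19 and 14.01 on all arrays, border-associated macrophage genes between 8.01 and 9.99, and blood cell lists below 3.3.

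The spread between pools differed by level. Over genes above the floor band the median SD was 0.68 and the 90th percentile 1.48. The median SD was 1.07 for genes with a mean from 4 to 6, 0.73 from 8 to 10, 0.30 from 12 to 14 and 0.14 at 14 and over. A total of 347 genes had an SD over 2. Receptors had a median SD of 0.42, transcription factors of 0.54 and secreted factors of 0.23, with 51 of 162 secreted factors at the floor.

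**Figure D4:**
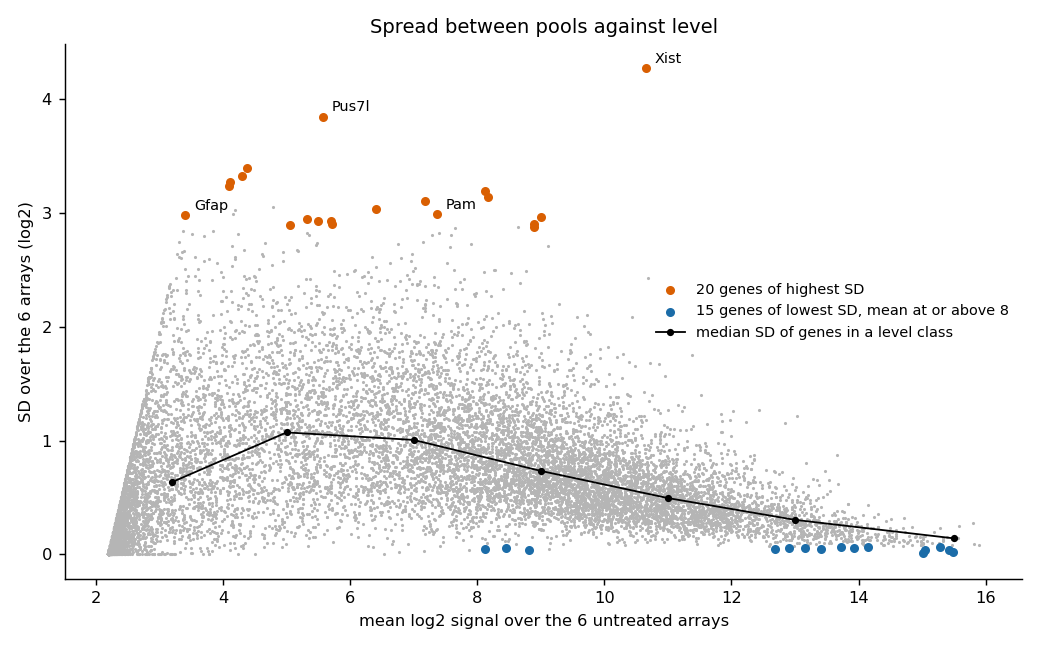
SD over the 6 untreated arrays against mean log2 signal for all genes, with the 20 genes of highest SD in orange, the 15 of lowest SD among genes with a mean of 8 or more in blue, and a line through the median SD of genes in each level class, drawn at the middle of the class. The median falls from 1.07 at means of 4 to 6 to 0.14 at 14 and over.

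Xist, the RNA of the inactive X chromosome, had the highest SD (4.27). It had 2.21 on UT-6_2013 and 10.72 to 13.47 on the other 5 arrays. The other probe sets of Xist were also at 2.19 and 2.25 on UT-6_2013. Y-linked genes had signal on all arrays: Eif2s3y ran from 8.67 to 11.41 and Kdm5d from 6.77 to 9.94, with the highest values of 11.41 and 9.94 on UT-6_2013, and Uty from 2.45 to 5.18. UT-6_2013 was thus the only pool of the 6 without Xist signal.

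Single arrays set many of the other high SDs. Pam, an enzyme that amidates peptides, had 13.39 on UT-2_2013 and 5.56 to 6.68 on the others. Gfap, the astrocyte filament, had 9.49 on UT-2_2013 and 2.19 on each of the others, and its other probe sets lay at 2.19 or 2.196 on all 6 arrays. Pus7l, a pseudouridine synthase relative, had 12.53 on UT-2_2013 and 2.23 to 7.27 elsewhere. UT-2_2013 was high in all 3 cases. Hexdc, a hexosaminidase, had 10.65 there and 3.57 to 6.97 elsewhere, and Rflna and Cytip were also highest on it, at 10.02 and 10.07. Rgs20, a regulator of G protein signalling, and Sin3a, a corepressor scaffold, were lowest there, at 2.19 and 3.15, against 8.24 to 11.09 and 9.06 to 10.71 on the other arrays. Other probe sets of these genes did not all follow. Another set of Rgs20, with a mean of 3.09, was highest on UT-2_2013 (4.80). The other set of Pus7l had 2.67 on UT-2_2013 and 5.97 on UT4_2012, and that of Rflna 2.19 on all arrays. For Sin3a another set was also lowest on UT-2_2013 (3.67), and a further set had 8.72 there and 7.79 on UT4_2012. For Cytip another set was highest on UT-2_2013 (6.61), and a further set stayed at 2.49.

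UT-6_2013 held the extremes of another set. Slc25a18, a mitochondrial glutamate carrier, had 10.46 on it and 2.21 to 5.77 elsewhere, and Zc2hc1c had 10.33 against 2.19 to 5.28. Angpt2, a vascular growth factor, and Cep135, a centriole protein, were highest there too, at 10.94 and 10.79. Xiap, an inhibitor of caspases, was at 2.61 on this array and at 5.87 to 10.39 on the others. Another probe set of Xiap, of nearly the same mean (8.15), had an SD of 0.55 and was highest, at 8.99, on UT-6_2013. Phka2, a phosphorylase kinase subunit, was at 3.09 on UT-6_2013 and at 9.19 to 10.88 elsewhere. Another set of Phka2 had 7.29 on UT-6_2013 and 5.06 to 7.47 elsewhere. The other set of Angpt2 had 3.66 on UT-6_2013 and was highest on UT-1_2013 (5.20). For Zc2hc1c the other sets had 2.19 and 2.30 on UT-6_2013.

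The remaining genes of the 20 were Igfbp5 (8.66 and 8.86 on UT-1_2013 and UT-3_2013, 2.19 on the lowest), Srpk3 (3.07 on UT-3_2013, 9.23 to 10.90 elsewhere), Phlda1 (2.19 to 10.70), Pomt2 (2.37 to 9.81) and Ccrl2 (2.93 to 9.70). Another probe set of Igfbp5 had 5.05 on UT-1_2013, 2.46 on UT-3_2013 and 5.32 on UT-2_2013. Other sets of Srpk3 were also lowest on UT-3_2013, at 5.07 and 2.59, and a further set stayed at 2.19. The genes next in order were Ttr, the choroid plexus transthyretin (SD 2.87, 4.09 to 12.19), and Ndrg4 (2.87), against 2.88 for Sin3a, the last gene inside the limit. Without UT-2_2013, UT-6_2013 or UT-3_2013, respectively 11, 12 and 13 of the 20 remained among the most variable.

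**Figure D5:**
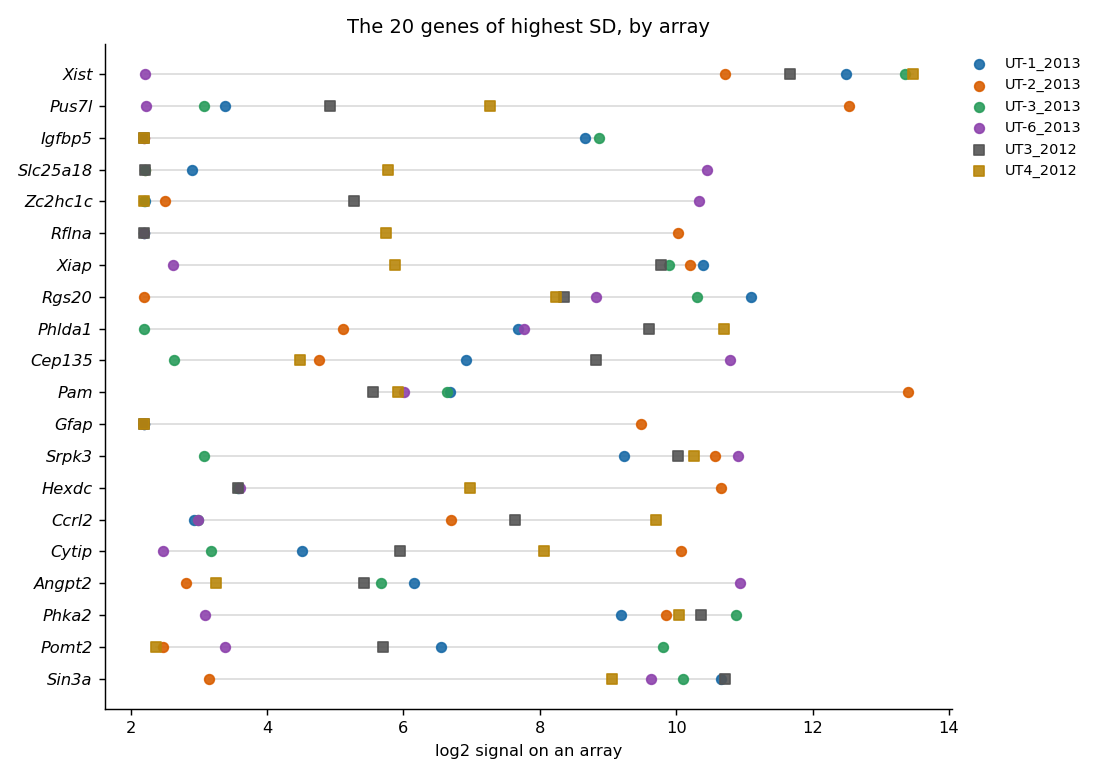
Log2 signal on each untreated array of the 20 genes with the highest SD, ordered by SD, with circles for UT_2013 and squares for UT_2012. For Xist a single array, UT-6_2013, lies at 2.21 while the others lie between 10.72 and 13.47, and for Pam and Gfap a single array, UT-2_2013, lies above all others.

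An array was counted as apart for a gene where it differed by 3 log2 units or more from each of the other 5. UT-2_2013 was apart for 118 genes upward and 72 downward (1.04% of genes), UT-6_2013 for 66 and 26, UT-3_2013 for 58 and 24, UT4_2012 for 42 and 13, UT-1_2013 for 16 and 1, and UT3_2012 for 4 and 2. Of the 442 cases in all, 181 concerned a gene with another probe set above the floor band on average. In 49 of these (27.1%) the same array was the extreme on the other probe set as well, by 1 log2 unit or more in 37. In the remaining cases the other probe set did not have that array as its extreme in the same direction.

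The least variable genes with a mean of 8 or more were Cfl1 (SD 0.02, 14.99 to 15.03), Tmsb4x (0.02, 15.45 to 15.52), Kat2a, Rps20, Ctss, Fam227b, Rps2, Tomm7, Dbi, Samd11, Ndufa2, Rtraf, Arsb, Hspa8 and Cdc42, with SDs up to 0.07. Cfl1, Tmsb4x and Cdc42, a small GTPase, act on the actin cytoskeleton, Rps20 and Rps2 are ribosomal, and Ctss and Arsb are lysosomal enzymes. The next genes were Sparc (0.07), the lysosomal thioesterase Ppt1 and Ccl9. Low SDs went with high signals in general, as given above, and other bright secreted products had larger SDs, such as Apoe (0.87) and Pf4 (1.27). For Kat2a, Fam227b, Tomm7 and Rtraf, 3 or 4 of the 6 values were equal to 3 decimals. Such repeated values, counted where at least 3 were equal and lay 0.3 or more above the floor, were found in 605 genes, 26 of them with a mean of 8 or more. Il1a and Hnrnpab, named above, are among these 26.

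The year is the only split that the labels give within these arrays, and it was tested with limma. At an adjusted p under 0.05, 0 of 11544 tested genes (0%) differed between the 4 UT_2013 arrays and the 2 UT_2012 arrays. An unadjusted p under 0.05 was found for 787 genes, where the threshold alone would give 577.2. Of the 787, 204 were higher in UT_2013 (697 of 893 with each array centred on its median). The lowest adjusted p by limma was 0.123. Without UT3_2012 the count was 144 (7 higher and 137 lower in UT_2013), with the lone UT_2012 array assumed to vary like those of UT_2013. The UT_2012 arrays are only 2, which limits the precision of every value here.

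The genes with the lowest p are given as values only. Best1, an ion channel, had 3.51, 3.35, 3.85 and 3.51 on the UT_2013 arrays and 9.19 and 8.74 on those of UT_2012, a difference of −5.41 ± 0.44 (log2, SE; adjusted p = 0.123 by limma). Aptx and Ghdc, with differences of −3.66 and −2.52, were also on that side. Ppp3cc (4.77 and 4.95) and Slc25a24 (4.57 and 4.10) had signal on the UT_2012 arrays, and on the 4 UT_2013 arrays they lay within the floor band (2.19 to 2.29 and 2.19 to 2.24), so no size of difference is given. On the other side stood Elmod1 (5.20 ± 0.60, adjusted p = 0.243 by limma), Cd24a, a surface protein of young neurons and other cells (1.45 ± 0.18), Bcat1 (3.17), Lrch2 (3.26) and Reln. Reln, the matrix protein of Cajal-Retzius cells, had 9.64 to 9.83 on the UT_2013 arrays and 7.84 and 7.69 on those of UT_2012. For these genes the arrays of the years did not overlap, which also held for 17.9% of all tested genes.

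By list, 0 genes passed the threshold, and directions depended on the scaling. Of all tested genes 40.7% were higher in UT_2013 in the deposited values (median difference −0.16), 49.5% after quantile normalization of the 6 arrays (−0.01) and 61.6% with each array centred on its median (0.21). Among genes with an unadjusted p under 0.05 by limma, 204 of 787, 289 of 629 and 697 of 893 were higher in UT_2013 under these scalings. Of 17 tested neuron genes 15, 16 and 16 were higher in UT_2013 in the same order (median differences of 1.09, 1.44 and 1.46). All 13 progenitor genes were higher in UT_2013 under each scaling (0.55, 0.83 and 0.93), and of 17 factors of other lineages 16, 16 and 17 (1.14, 1.40 and 1.52). Some of these factors stand on the neuron list too, such as Neurod2 and Tbr1, or on the progenitor list, such as Eomes, Sox2 and Pax6. These lists thus lay above the median of all tested genes under each scaling.

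Of 20 immediate early genes 1, 2 and 7 were higher in UT_2013 (−0.65, −0.60 and −0.27), and of 24 mitosis and S phase genes 6, 9 and 12 (−0.41, −0.28 and −0.04). Directions turned with the scaling for other lists. Of 22 lysosome genes 4, 4 and 18 were higher in UT_2013 (−0.09, −0.09 and 0.29), and of 23 microglia identity genes 11, 12 and 21 (0.00, 0.02 and 0.38), so no direction is given for them.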

How the data were processed

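RNA of 6 pools of sorted microglia was measured on Affymetrix Mouse430_2 arrays. The deposited values are log2 signals, and per the submitters' processing notes the authors used RMA. Its version is not stated there. Of 45101 probe sets, 34958 name 1 gene in the platform annotation, 932 several and 9211 none, and the probe set with the highest mean over all 18 arrays was kept for each of 18194 genes. The gene lists held 823 names, 751 of them measured. Members and lists were chosen with earlier results of these data known.

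Levels were summarised with Python 3.11.15, numpy 2.4.6 and pandas 2.3.3. The years were compared with limma 3.58.1 in R 4.3.3 (lmFit, eBayes with trend, two-sided, Benjamini-Hochberg adjustment) over genes with a mean at or above the floor band, and the script was tested on simulated data. Pools are the samples, and their number limits the precision. Alternatives changed the filter, the normalization, the variance model, the array weights, the probe set and the arrays included.

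Named genes were the markers, the 25 brightest, the 4 brightest of each role or list with up to 6 members at the floor, the 20 most and 15 least variable, the sex-linked genes, and the 5 lowest p in each direction of the year comparison. The most variable needed a highest value of 6 or more and the least variable a mean of 8 or more, and predicted or clone names were skipped. Other genes, such as Spi1, Trem2, Tlr4, Il1b, Il34, Ccr2, Lyve1 and Cd163, were named after their values were seen.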

Additional observations from a re-analysis of the deposited data

Results flagged for a closer look

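Of 186 named genes and 38 list means, 26 genes and 2 lists had an array whose gap to the nearest other array was larger, as a share of the whole range over the 6 arrays, than Dixon's critical value at the 95% level. The chance rate of about 1 such case in 20 holds for normally spread values without ties. Where 5 values were equal, as for Gfap, S100a9 and Cd4, any different value on the remaining array is flagged. Genes with the highest SD were moreover chosen for their spread. Each value is given in log2 units with the range of the other 5 arrays, and no cause was tested.

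On UT-2_2013 these were Gfap (9.49 against 2.19), Pam (13.39 against 5.56 to 6.68) and Hnrnpab (15.71 against 15.37 to 15.49) on the high side. On the low side of the same array stood Cst3 (14.48 against 14.79 to 14.92), P2rx4 (7.10 against 9.99 to 10.86), P2rx7 (9.76 against 10.65 to 11.14), Rgs20 (2.19 against 8.24 to 11.09), Sin3a (3.15 against 9.06 to 10.71) and Ybx1 (12.998 against 13.69 to 14.01). The mean of the cytokine and growth factor receptor list was lowest there as well: list mean (7.04 against 7.30 to 7.41).

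UT-6_2013 was high for Alas2 (3.89 against 2.26 to 2.39), Col3a1 (3.76 against 2.19 to 2.25), Fam227b (8.21 against 8.08 to 8.12) and Ifit3 (11.26 against 8.42 to 9.38), and low for Phka2 (3.09 against 9.19 to 10.88) and Xist (2.21 against 10.72 to 13.47). UT-3_2013 was high for the mast cell protease genes Cma1 (5.37 against 2.19 to 2.97) and Cpa3 (4.97 against 2.19 to 2.51) and for the T cell co-receptor Cd4 (3.07 against 2.33), and low for the kinase gene Srpk3 (3.07 against 9.23 to 10.90). The lymphocyte and mast cell list was highest on UT-3_2013 too: list mean (3.27 against 2.71 to 2.91).

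On UT4_2012 the complement chain gene C1qa (12.01 against 13.53 to 13.94) and the lineage factor Maf (13.29 against 13.89 to 14.24) were low. UT3_2012 was high for Rtraf (13.03 against 12.86 to 12.91) and S100a9 (3.23 against 2.19) and low for Tomm7 (12.58 against 12.70 to 12.71). UT-1_2013 was high for Dbi (13.26 against 13.11 to 13.15) and Igfbp2 (5.94 against 3.18 to 4.18).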

How the results depend on the processing

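The 0 genes past the threshold between UT_2013 and UT_2012 arrays became 19 with no filter on low values (5 higher and 14 lower in UT_2013), 1 with eBayes without trend and 1 with the mean over the probe sets of a gene. Leaving out 1 array gave 0 to 144, with 144 only without UT3_2012, and across all settings the count at an unadjusted p under 0.05 ran from 453 to 1168. The median SD of genes above the floor band, 0.6766, was 0.6236 with the band at the 60th percentile and 0.5445 with the mean over probe sets. Leaving out 1 array gave 0.6079 (without UT-2_2013) to 0.6999. The mean over probe sets kept 8 of the 25 brightest genes. Of the 20 most variable genes 11 were kept without UT-2_2013, 12 without UT-6_2013 and 13 without UT-3_2013, and of the 15 least variable 9 under quantile normalization and 7 without UT-2_2013 or UT4_2012. The cause of these shifts was not tested. The ranges of 5 list means without UT-2_2013 or UT-6_2013, and the year directions of lists under other scalings, were chosen after seeing the data. No paired analysis was possible because the UT_2013 and UT_2012 arrays share only 1 replicate number.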
